A study of Homo sapiens with 12 samples.

Results

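The genes described here are the 9 core genes of the Sonic hedgehog pathway, namely the ligand SHH, the receptors and co-receptors PTCH1, SMO, HHIP, GAS1 and BOC, and the transcription factors GLI1, GLI2 and GLI3. They were picked by symbol out of 25718 genes in the count tables, with earlier results of these data known. Where a gene was listed with several RefSeq transcripts, the transcript with the highest mean count was taken. The data are RNA sequencing counts from 12 cultures of H9, a widely used line of human embryonic stem cells. All cultures were transduced at a multiplicity of infection of 50 with a lentiviral vector from which doxycycline switches on miR-10a or miR-10b together with a GFP reporter. All were then patterned towards ventral midbrain with Shh protein at 200 ng/ml and what the labels write as CT0.8, and all were harvested at day 14 of neural induction. The 4 groups of 3 replicates were miR-10a with doxycycline, which was present from day 11 until harvest, miR-10a without doxycycline, miR-10b with doxycycline on the same days, and miR-10b without doxycycline. The controls thus carried the vector but were not induced, and no GFP-only culture with doxycycline was analysed here, so that an effect of doxycycline cannot be told apart from one of miR-10. No sorting is stated for these cultures, and in such bulk samples fewer cells of a type and less RNA per cell cannot be told apart. The labels call the samples replicates without saying what was repeated, so that the p-values measure the spread between these samples only.

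In the resting pathway, Patched receptors keep Smoothened inactive, and the GLI proteins are held by SUFU and processed at the primary cilium, GLI3 mainly into a repressor. When SHH binds PTCH1 with the help of co-receptors such as GAS1 and BOC, SMO is released, GLI2 and GLI3 are no longer converted to repressors, and target genes are transcribed. PTCH1, HHIP and GLI1 are themselves targets, and PTCH1 and HHIP limit the signal while GLI1 amplifies it. In the neural tube, SHH from the notochord and floor plate sets ventral identity, and the midbrain floor plate, which gives rise to dopamine neurons, keeps expressing SHH. The recombinant Shh protein in the medium is not counted by RNA sequencing, and the SHH counts are transcripts of the cells.

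MicroRNAs lower target transcripts mainly through sites complementary to their bases 2 to 8, the seed. The mature sequence of the induced miR-10a is shown because the search below rests on its seed, which is printed in capitals and which miR-10b shares. The sequence is from RefSeq (GRCh38.p14, chr17:48579904-48579926, minus strand).
hsa-miR-10a-5p: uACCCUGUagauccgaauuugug
The longest annotated 3′UTR of each of the 9 genes (GENCODE 44 on GRCh37) was searched on the transcript strand for the 8mer ACAGGGTA, the 7mer-m8 ACAGGGT, the 7mer-A1 CAGGGTA and the 6mer CAGGGT, each site being counted once under its longest form. The matches of all but HHIP are given here, so that no share over the 9 genes can be read from them. None of these 8 genes held an 8mer. Of the 9260 tested genes that have a 3′UTR in the annotation, 2.59% did, so that none among 8 genes cannot be read as a lack. PTCH1 held 1 7mer-A1 in a 3′UTR of 3500 bases (chr9:98207739-98207745, minus strand), a form found in 6.95% of those 9260 genes. The site is shown with its neighbouring bases, the match in capitals.
PTCH1: tgctggaacctCAGGGTAtggagctcaca
SHH held 2 6mers, SMO and GAS1 held 1 each, and GLI1, GLI2, GLI3 and BOC held none of these letters. At least 1 6mer was found in 29.4% of the tested genes with a 3′UTR. These matches describe the sequences and do not show that a site is used.

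The 9 bases GACCACCCA, or TGGGTGGTC on the other strand, form the core that GLI proteins bind. They were searched on both strands of RefSeq promoters, which run from 250 bases before to 50 bases after the start of a gene. Of the 7 promoters of these genes that were found, that of PTCH1, a known GLI target, held the core. Of all 35116 promoters, 83 did (0.236%). The stretch is shown with the core in capitals (GRCh38.p14, chr9:95509420-95509448, minus strand), and the first base of the core lies 172 bases before the start site.
PTCH1 promoter: gttgcctaccTGGGTGGTCtctctacttt

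The libraries held between 10545487 and 14165426 counts each, and every uninduced culture had a higher total than every induced culture of its vector. A count of 3, taken as the floor of detection, corresponds to 0.212 to 0.284 CPM (CPM being counts scaled to the sample's total). The precursors followed the labels, with MIR10A (NR_029608) at 711 to 731 CPM in induced miR-10a cultures against 0.641 to 1.37 in their controls, and MIR10B (NR_029609) at 2541 to 2662 CPM in induced miR-10b cultures against 2.89 to 4.45. Replicate 2 of the induced miR-10b group stood apart, since the chi-square per degree of freedom between it and the other two was 2.80 and 3.57, while all other replicate pairs lay between 1.19 and 1.76. Of the markers of the labelled tissue, FOXA2, CORIN, LMX1A and FERD3L were detected, LMX1B was at 0 in every sample and OTX2 averaged 6.25 counts. LMX1B, with 3 listed transcripts, and OTX2, with 7, are among the genes for which the counting appears to leave out reads shared by several transcripts, so that a low count is not a low level. The same holds for PTCH1, with 7 transcripts, and GLI1, with 3. The other 7 pathway genes have a single listed transcript.

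Among these 7 genes, the levels per length of transcript ran from SHH to HHIP in the order that the plot of levels per length shows on a log axis. SHH (NM_000193, GRCh37 chr7:155592674-155605157) averaged 371.9 CPM per kb over the 12 samples and lay between 352.0 and 403.6. It stood at the 99.0th percentile of the tested genes. These include genes with several transcripts, which appear to lack shared reads, so that the percentile may be too high. SMO, the signal transducer of the membrane, averaged 99.2 CPM per kb and varied least of the 7 genes relative to its mean, from 95.5 to 102.4. GLI3 (chr7:42000547-42303699), the main repressor of the pathway, averaged 17.7 CPM per kb (16.2 to 19.6). The co-receptor BOC followed at 14.4 (13.6 to 15.9), so that its highest sample lay below the lowest of GLI3. GAS1, a membrane-anchored co-receptor, averaged 2.85 CPM per kb (2.14 to 3.86) and GLI2 (chr2:121493199-121750229), the main activator, 2.63 (1.31 to 3.88), and the ranges of these neighbours overlapped. HHIP, the decoy receptor, was lowest at 1.09 (0.792 to 1.28), and its highest sample lay just below the lowest of GLI2. PTCH1 and GLI1 were left out of this order because of their shared reads.

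**Figure D1:**
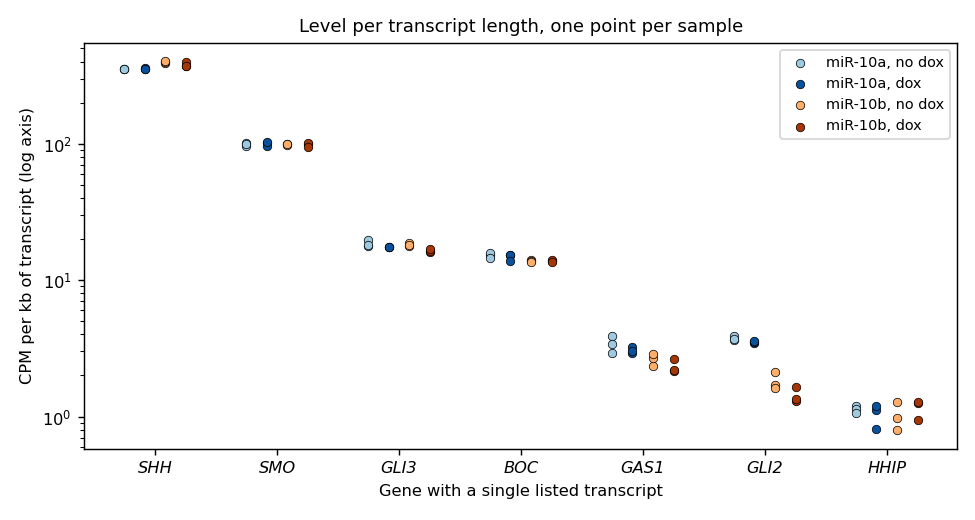
Level of the 7 pathway genes with a single listed transcript, in CPM per kb of transcript on a log axis, with 1 point per sample and 1 colour per group (n = 3 each). SHH lies highest with a mean of 371.9 and HHIP lowest with a mean of 1.09, and GLI2 is the gene whose miR-10a and miR-10b samples lie farthest apart.

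Induction of miR-10b was accompanied by lower counts of GLI3 and GLI2, while no pathway gene passed the test with miR-10a. The tests used the quasi-likelihood method of edgeR on the 11451 genes whose mean exceeded 10 counts, with Benjamini-Hochberg adjustment over all of them and a threshold of 0.05. Of the 9 genes, 8 could be tested. GLI1, the target gene and activator, was below the filter with 0 to 5 counts in each sample.

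With miR-10b, 2 of the 8 genes fell and none rose, against 15.3% of all tested genes called in either direction, 8.18% higher and 7.15% lower. GLI3 stood at 146.5, 153.3 and 147.9 CPM in the 3 uninduced miR-10b cultures and at 132.7, 134.7 and 139.3 in the 3 induced ones. Every induced culture was thus below every uninduced one, as was the case for 12.3% of all tested genes. The log2 fold change of GLI3 was -0.14 (SE 0.04, 95% interval -0.22 to -0.06, adjusted p = 0.0145), a ratio of 0.908. The call was lost without replicate 1 of the induced group (-0.12, adjusted p = 0.0698) or replicate 2 of the uninduced group (-0.12, adjusted p = 0.0894), and was kept without the replicate that stood apart (-0.13, adjusted p = 0.0234).

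GLI2 stood at 14.4, 11.5 and 10.9 CPM without doxycycline and at 8.83, 11.2 and 9.06 with it in the miR-10b cultures, from 105 to 181 counts. These groups overlapped, since replicate 2 of the induced group lay above replicate 3 of the controls. The log2 fold change of GLI2 was -0.34 (SE 0.11, 95% interval -0.56 to -0.11, adjusted p = 0.0355). It was -0.45 without replicate 2 of the induced group, and the call was lost without replicate 1 (-0.27, adjusted p = 0.154) or 3 (-0.29, adjusted p = 0.112) of that group. Without replicate 1 of the uninduced group it was -0.21 (adjusted p = 0.259), and in a fit of the 6 miR-10b samples alone the adjusted p was 0.0723.

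The other 6 tested genes did not pass with miR-10b. The ligand SHH stood at 614.8, 626.1 and 636.1 CPM without and 590.6, 626.7 and 587.2 with doxycycline, a log2 fold change of -0.06 (95% interval -0.12 to 0.00, adjusted p = 0.226). The highest of the induced values was that of replicate 2, and without it SHH passed the test at -0.09 (adjusted p = 0.0335). SMO had a log2 fold change whose 95% interval was -0.07 to 0.06, and BOC one of -0.11 to 0.11. The estimate of GLI3 lay outside both, but its own interval overlapped them, and the genes were not tested against each other. The intervals were wider for the genes with fewer counts, being -0.47 to 0.08 for GAS1, -0.16 to 0.29 for PTCH1 and -0.19 to 0.56 for HHIP.

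Markers of several cell states differed in the same comparison, most lists in part of their members. The summed level of 7 mesenchyme or fibroblast markers, 6 of them with a mean above 10 counts, was 370 to 393 CPM in uninduced and 309 to 332 CPM in induced miR-10b cultures. COL1A1 (log2 fold change -0.60, adjusted p = 1.0e-08) and COL3A1 (-0.21, adjusted p = 0.000377) were called lower, the other 4 tested ones were not. Of the 6 pluripotent cell markers NANOG, with 2 listed transcripts, was at 0. The list summed to 1229 to 1258 CPM without and 996 to 1009 CPM with doxycycline, and this rested on LIN28A (-0.34, adjusted p = 4.8e-11). DPPA4, the other marker of that list above 10 counts, had a log2 fold change of -0.03 (adjusted p = 0.703). The paper names LIN28A as a miR-10 target that fell with both vectors, so that the sum is not a measure of pluripotent cells. The 5 neural progenitor markers summed to 11232 to 11330 CPM without and 10718 to 10891 CPM with doxycycline, and of them SOX3 (-0.40, adjusted p = 3.1e-07) and NES (-0.14, adjusted p = 0.000338) fell. The 7 neuron markers, 4 of them tested, summed to 1674 to 1711 CPM against 1481 to 1563, where SYT4 fell (-0.28, adjusted p = 1.6e-07) and INA rose (0.09, adjusted p = 0.037). Of the 5 tested floor plate markers CORIN fell (-0.77, adjusted p = 6.3e-08), and the sum over the list overlapped between the groups (158 to 166 against 156 to 163 CPM). None of the 4 tested forebrain markers was called in edgeR, and none had an unadjusted p under 0.05. The 5 neural crest markers summed to at most 1.04 CPM in the miR-10b cultures, and none had a mean above 10 counts. The part of these markers in the GLI2 and GLI3 values was not tested.

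With miR-10a, none of the 8 genes passed, against 1.21% of all tested genes (0.472% higher and 0.742% lower), and none had an unadjusted p under 0.05. DESeq2 called none either. GLI3 stood at 147.4, 161.0 and 147.6 CPM without and 143.8, 144.6 and 143.1 CPM with doxycycline, and the groups did not overlap. Its log2 fold change was -0.08 (SE 0.04, 95% interval -0.16 to 0.00, adjusted p = 0.457). GLI2 stood at 24.7, 26.3 and 25.2 CPM without and 23.5, 23.8 and 24.2 with doxycycline, again without overlap, with a log2 fold change of -0.09 (95% interval -0.26 to 0.08, adjusted p = 0.761). Induced cultures were all below their controls in 7.75% of all tested genes. PTCH1 was the one pathway gene whose induced cultures all lay above their controls, which 10.5% of all tested genes did. Its values were 10.9, 11.58 and 10.4 CPM without and 12.04, 11.59 and 13.2 with doxycycline (log2 fold change 0.16, 95% interval -0.05 to 0.36, adjusted p = 0.622). The PTCH1 groups thus nearly met, at 11.58 and 11.59 CPM. SHH hardly varied, at 558.8, 559.0 and 560.8 CPM without and 563.0, 554.7 and 555.0 CPM with doxycycline, and its 95% interval was -0.07 to 0.06. The remaining intervals of the log2 fold change were -0.05 to 0.08 for SMO, -0.15 to 0.06 for BOC, -0.40 to 0.10 for GAS1 and -0.49 to 0.27 for HHIP.

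**Figure D2:**
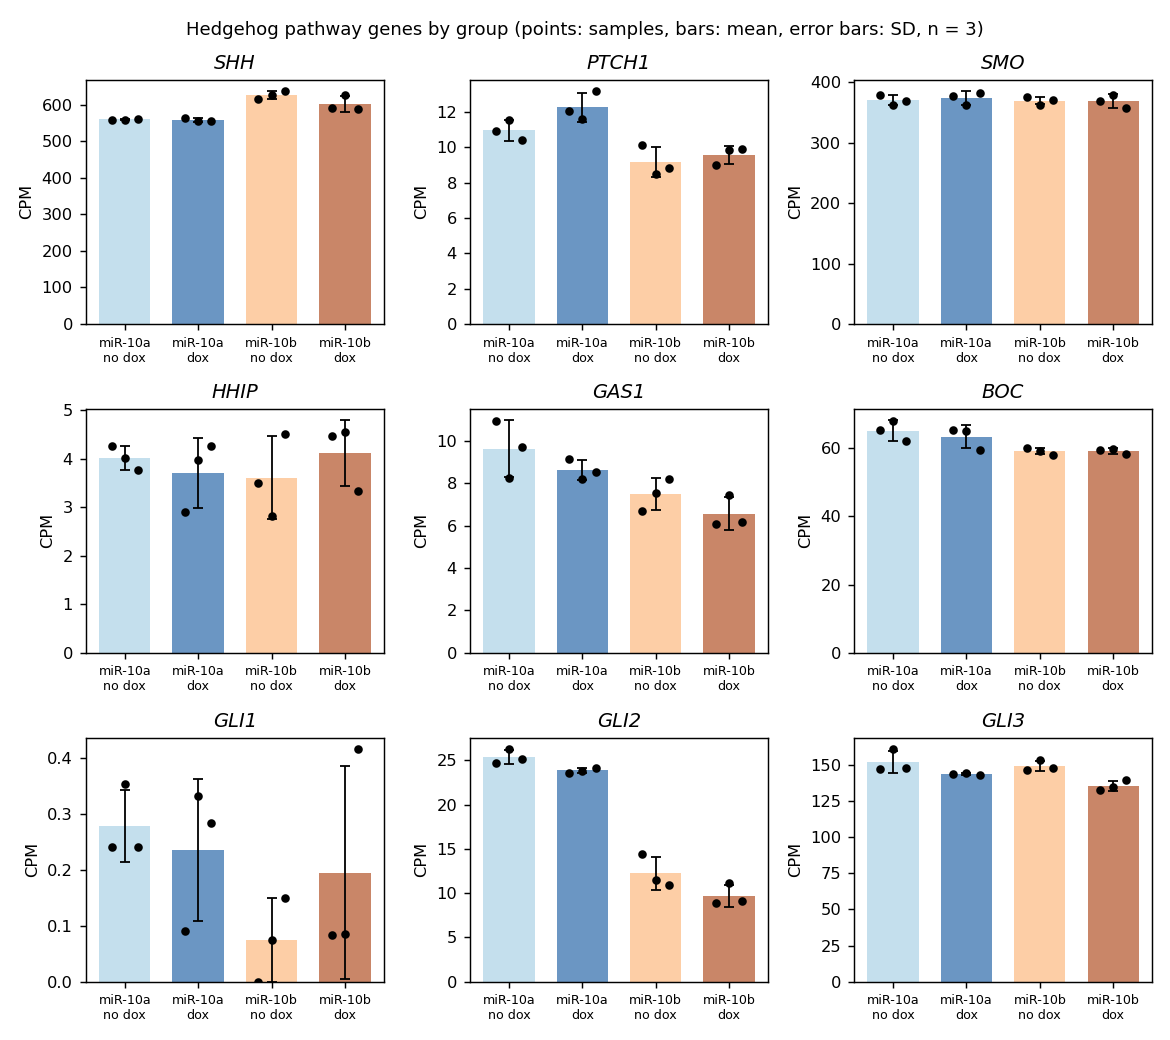
CPM of each of the 9 pathway genes in the 4 groups, with a linear axis from 0 for each gene. Points are samples, bars are means and error bars are SD (n = 3). GLI2 lies between 23.5 and 26.3 CPM in the miR-10a samples and between 8.83 and 14.4 CPM in the miR-10b samples, SMO is level throughout, and GLI1 stays at or below 0.416 CPM.

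The effects with the vectors were also averaged and compared, since both microRNAs have the same seed. In the average, GLI3 fell by 0.11 on the log2 scale (SE 0.03, 95% interval -0.17 to -0.05, adjusted p = 0.00668) and GLI2 by 0.21 (SE 0.07, 95% interval -0.35 to -0.07, adjusted p = 0.0346), against 13.9% of all tested genes called in either direction, 7.67% higher and 6.22% lower. GLI3 kept its call in all 12 fits that each left out 1 sample, with log2 fold changes from -0.12 to -0.09. GLI2 kept it in 4 of the 12, with log2 fold changes from -0.27 to -0.15 and adjusted p-values from 0.0068 to 0.167. No pathway gene passed the test of the difference between the effects of the vectors, where 1.96% of all tested genes did (0.576% higher and 1.38% lower), and none had an unadjusted p under 0.05. DESeq2 called none either. The difference was -0.25 for GLI2 (95% interval -0.53 to 0.04, adjusted p = 0.466) and 0.30 for HHIP (95% interval -0.23 to 0.83, adjusted p = 0.682), which has the fewest counts of the 8 genes. The median log2 fold change of the 8 genes was -0.06 with miR-10a, -0.03 with miR-10b and -0.03 in the average, against 0.01, 0.02 and 0.01 for all tested genes.

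The largest difference in these genes lay between the vectors and not between induced and uninduced cultures. GLI2 in the uninduced miR-10b cultures (12.3 ± 1.86 CPM, SD, n = 3) was at 0.481 times its level in the uninduced miR-10a cultures (25.4 ± 0.81 CPM, SD, n = 3). The log2 fold change was -1.05 (SE 0.09, 95% interval -1.24 to -0.87, adjusted p = 1.9e-11), and 0.777% of all tested genes differed by more. It stayed between -1.18 and -0.98 in the 12 fits that each left out 1 sample. For every gene compared between the uninduced vectors, the fits without an induced culture kept all compared samples. Those fits changed mainly the shared estimate of the spread. In the induced cultures, which were not used in that contrast, GLI2 was at 23.9 ± 0.32 CPM with miR-10a and 9.68 ± 1.28 CPM with miR-10b (SD, n = 3 each). All 6 miR-10b samples were therefore below all 6 miR-10a samples.

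SHH was higher in the uninduced miR-10b cultures, at 614.8 to 636.1 CPM against 558.8 to 560.8, a log2 fold change of 0.16 (SE 0.03, 95% interval 0.10 to 0.22, adjusted p = 0.000162). It kept this call in all 12 fits that left out a sample, of which those without an induced culture left the compared samples unchanged. GAS1 was lower, at 6.67, 7.56 and 8.19 CPM against 10.9, 8.26 and 9.70 CPM in the miR-10a cultures, with a log2 fold change of -0.36 (SE 0.12, 95% interval -0.60 to -0.11, adjusted p = 0.0456). The GAS1 groups came within 0.1 CPM of each other, and the call was lost with TMM factors (adjusted p = 0.0505), with DESeq2 (adjusted p = 0.156), without the filter on counts (adjusted p = 0.0508) and in 6 of the 12 fits that left out a sample. Of all tested genes, 14.1% passed in this comparison, 7.41% higher and 6.72% lower.

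BOC and PTCH1 also had all uninduced miR-10b cultures below all uninduced miR-10a cultures, as did 15.9% of all tested genes, but neither passed the test. BOC stood at 60.0, 59.3 and 58.1 CPM against 65.4, 68.1 and 62.1 (log2 fold change -0.14, 95% interval -0.24 to -0.04, adjusted p = 0.0538). It passed in a fit of the compared samples alone (adjusted p = 0.0328), with the replicate block (0.0444), with a filter at a mean of 50 counts (0.0435) and in 4 of the 12 fits that left out a sample (0.0302 to 0.0494), those without replicate 3 of either miR-10a group, or replicate 2 or 3 of the induced miR-10b group. PTCH1 stood at 10.2, 8.52 and 8.86 CPM against 10.9, 11.6 and 10.4 (log2 fold change -0.26, 95% interval -0.48 to -0.05, adjusted p = 0.0995). GLI3 was at 149.2 ± 3.6 against 152.0 ± 7.8 CPM (SD, n = 3 each), and the 95% interval of its log2 fold change was -0.11 to 0.05. That of SMO was -0.07 to 0.07 and that of HHIP -0.52 to 0.21. GLI1 had 0, 1 and 2 counts against 3, 5 and 3 (exact permutation test of CPM, two-sided, p = 0.1, the smallest that 3 against 3 samples allow), most of them at or under the floor of 3 counts. The median log2 fold change of the 8 tested genes was -0.15, against -0.01 for all tested genes.

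**Figure D3:**
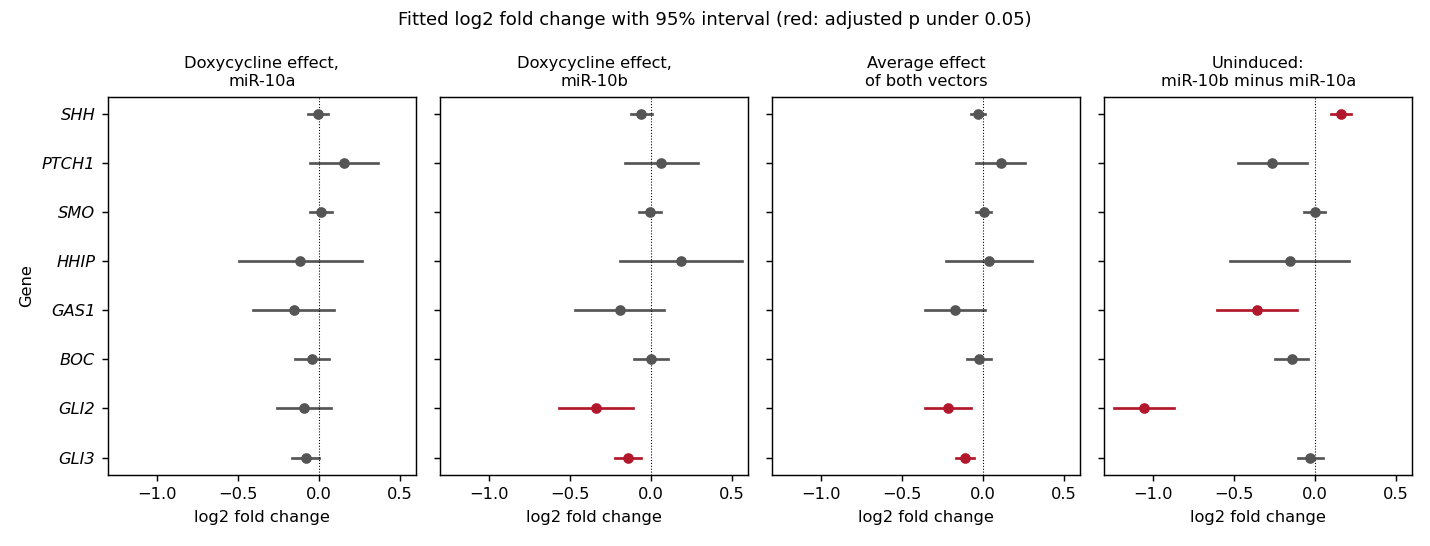
Fitted log2 fold change (horizontal axis) of the 8 tested pathway genes with its 95% interval, for the doxycycline effect with each vector, their average, and uninduced miR-10b minus uninduced miR-10a cultures. Red marks an adjusted p under 0.05, which GLI2 and GLI3 reach in the panels for miR-10b and for the average and SHH, GAS1 and GLI2 in the last, where GLI2 lies at -1.05.

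The vector and the culture it was put into cannot be told apart in this comparison, and the uninduced groups differed in other ways. MIR10B reads were at 2.89 to 4.45 CPM in the uninduced miR-10b cultures and at 0.482 to 1.04 CPM in the uninduced miR-10a cultures. MIR10A reads went the other way, at 0 to 0.0794 CPM in the uninduced miR-10b cultures and 0.641 to 1.37 CPM in the uninduced miR-10a cultures. The 7 midbrain floor plate markers, 5 of them with a mean above 10 counts, summed to 158 to 166 CPM against 85.2 to 89.6, and 3 of the 5 tested ones (LMX1A, CORIN and FERD3L) were called higher. FERD3L made up most of both sums, at a mean of 101.7 against 50.0 CPM. The mesenchyme or fibroblast markers summed to 370 to 393 CPM against 164 to 165, and the pluripotent cell markers to 1229 to 1258 CPM against 1643 to 1721. The latter sum rested on LIN28A, at a mean of 1135 against 1539 CPM, and DPPA4, at 108 against 146 CPM. NANOG was at 0 but has 2 listed transcripts, so that its count does not give its level. ZFP42, with a single listed transcript, averaged 0.333 counts, so that the sum is not a measure of pluripotent cells. All 5 neural progenitor markers were called, SOX1 (log2 fold change -1.23, adjusted p = 1.5e-17) and SOX3 (-0.76, adjusted p = 1.0e-15) lower with miR-10b and SOX2 (0.13), NES (0.17) and VIM (0.19) higher. Of 4 tested forebrain markers NKX2-1 was called higher and EMX2 lower, and of 4 tested neuron markers SYT4 higher. The part of these markers in the GLI2, SHH and GAS1 values was not tested.

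The balance of the GLI factors was given by the ratio of GLI3 to GLI2, both in CPM per kb. It was 4.92, 5.05 and 4.83 in the uninduced and 5.03, 5.00 and 4.88 in the induced miR-10a cultures. In the miR-10b cultures it was 8.40, 11.0 and 11.2 without and 12.4, 9.95 and 12.7 with doxycycline. The ratio was thus above 8 in every miR-10b sample and near 5 in every miR-10a sample, while the induced and uninduced miR-10b samples overlapped (11.7 ± 1.49 and 10.2 ± 1.56, SD, n = 3 each). These are ratios of transcripts and do not measure the repressor and activator forms of the proteins.

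**Figure D4:**
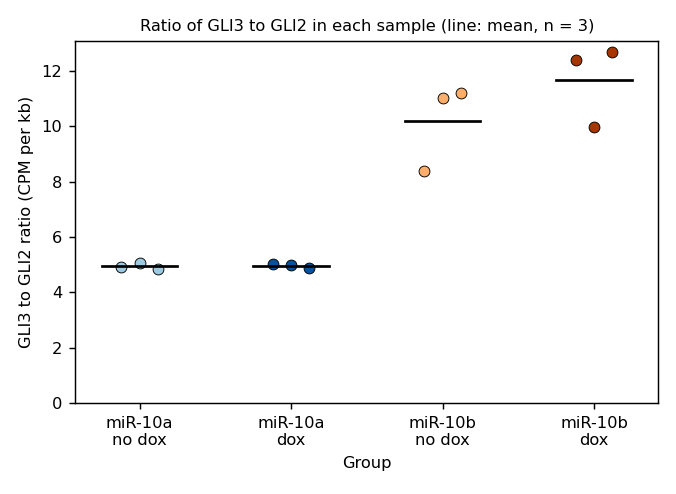
Ratio of GLI3 to GLI2, both in CPM per kb of transcript, in each of the 12 samples by group, with the mean of each group as a line (n = 3). The miR-10a samples lie between 4.83 and 5.05 and the miR-10b samples between 8.40 and 12.7.

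For each gene that passed a test, the 3 tested genes with the most similar course over the 12 samples were found by the root mean square distance between centred log2 CPM values. For GLI2 these were SOX1 (distance 0.12), WNT4 (0.14) and SOX3 (0.15), beside a standard deviation of GLI2 itself of 0.62 over the samples. SOX1 and SOX3 are transcription factors of neural progenitors and WNT4 is a secreted signal. For SHH they were CALR, PPP1R11 and SOX2 (0.02 to 0.03, with a standard deviation of SHH of 0.08), for GLI3 PARD6G, MIOS and RBSN (0.03 to 0.04, with 0.08) and for GAS1 RASL12, MARC1 and ANKRD18B (each 0.10 to 0.11, with 0.24). These distances are descriptions over samples that share the same 4 groups.

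Of 31 further symbols of the pathway, 30 were in the files. Those not tested, here and in the dorsal and cilium lists below, mostly have several listed transcripts. For such genes a low count is not a low level. Of the further symbols, 16 were tested. With miR-10a none passed, where 1.21% of all tested genes did, 4 had an unadjusted p under 0.05, as did 11.2% of all tested genes, and DESeq2 called none. With miR-10b 3 rose and 3 fell, against 8.18% and 7.15% of all tested genes, and the log2 fold changes of the 16 had a median of 0.01 against 0.02 for all tested genes. ZIC1, a zinc finger protein related to the GLI family, changed most. It stood at 7.47, 6.15 and 6.31 CPM without and 3.95, 3.52 and 3.41 CPM with doxycycline in the miR-10b cultures (log2 fold change -0.87, SE 0.15, adjusted p = 5.3e-05). With miR-10a it stood at 4.26, 4.17 and 4.33 against 3.17, 2.48 and 2.56 CPM, and in the average of both vectors it fell by 0.75 on the log2 scale (SE 0.12, adjusted p = 1.2e-05). The log2 fold change of ZIC1 with miR-10a was -0.63 and did not pass (adjusted p = 0.0675). Both vectors showed all induced samples below all controls, as did 7.75% of all tested genes with miR-10a and 12.3% with miR-10b. ZIC2, of the same family, fell with miR-10b from 24.7, 25.3 and 22.4 to 20.4, 21.0 and 18.7 CPM (log2 fold change -0.27, SE 0.08, adjusted p = 0.0188). EVC, a ciliary protein that acts with SMO, fell from 82.0 ± 3.9 to 70.4 ± 2.2 CPM (SD, n = 3 each, adjusted p = 0.00159).

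The genes that rose with miR-10b did so by less. ADRBK1, the kinase also known as GRK2 that acts on GPCRs and in SMO signalling, went from 133.6 ± 1.15 to 150.3 ± 2.36 CPM (SD, n = 3 each, log2 fold change 0.17, adjusted p = 0.0023). LRP2, an endocytic receptor that takes up SHH in the neuroepithelium, had a log2 fold change of 0.09 (adjusted p = 0.0366). SCUBE1, of a family of secreted proteins that help release SHH, had one of 0.12 (adjusted p = 0.0193), and lost its call without replicate 2 of the induced group (0.07, adjusted p = 0.158). Between the uninduced vectors, 7 of the 16 genes were higher with miR-10b and 1 was lower, against 7.41% and 6.72% of all tested genes, and the median log2 fold change was 0.15 against -0.01 for all tested genes. The higher ones were SCUBE3, EVC and, on the side of ligand release and uptake, DISP1 (log2 fold change 0.31, SE 0.05), SCUBE1 (0.25, SE 0.04) and LRP2 (0.24, SE 0.03), with DLG5, a scaffold protein (0.28, SE 0.03), and ZIC1 (0.64, SE 0.14). Their adjusted p-values lay between 2.9e-09 and 0.0193. ZIC2 was lower (-0.35, SE 0.07, adjusted p = 0.000601).

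All 10 ventral transcription factors downstream of the pathway were tested. FOXA2 and FERD3L are also among the floor plate markers used above, and NKX2-1 among the forebrain markers. None of the 10 passed with miR-10a, where 4 had an unadjusted p under 0.05, against 11.2% of all tested genes. With miR-10b, where 15.3% of all tested genes were called, 2 rose, NKX6-1 (log2 fold change 0.21, adjusted p = 0.00772) and NKX6-2 (0.23, adjusted p = 0.000214), and NKX6-1 lost its call without replicate 2 of the induced group (0.13, adjusted p = 0.0945). In the average of both vectors NKX6-2 rose (0.17, adjusted p = 0.000131) and NKX2-2 fell (-0.12, adjusted p = 0.0406), while NKX6-1 did not pass (adjusted p = 0.104). Of all tested genes, 7.67% were called higher and 6.22% lower in the average. Between the uninduced vectors, where 14.1% of all tested genes were called, 3 were higher with miR-10b, FERD3L, NKX2-1 and FOXA1, and 3 were lower, NKX2-8, NKX2-2 and NKX6-1. FERD3L, a floor plate factor, was at 101.7 ± 1.36 against 50.0 ± 0.14 CPM (SD, n = 3 each, log2 fold change 1.02, SE 0.05, adjusted p = 4.5e-19). NKX2-8 had 19 to 22 counts against 43 to 67 counts (log2 fold change -1.38, SE 0.21, adjusted p = 4.7e-06), and NKX2-1, a ventral forebrain factor, 21 to 29 against 9 to 15 (0.94, SE 0.27, adjusted p = 0.0134). The list thus went in both directions, with a median log2 fold change of 0.06 against -0.01 for all tested genes.

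Of 9 dorsal and intermediate factors that the pathway restrains, 4 were tested, and most of the others have several listed transcripts. With miR-10a 1 of the 4 passed, against 1.21% of all tested genes. This was IRX3, a homeobox factor, which fell from 73.7, 78.6 and 75.6 to 59.7, 66.7 and 63.1 CPM (log2 fold change -0.27, SE 0.06, adjusted p = 0.012). With miR-10b none of the 4 passed, and 2 had an unadjusted p under 0.05, as did 27.6% of all tested genes. Without replicate 2 of the induced group, IRX3 passed with miR-10b too (-0.27, adjusted p = 0.00548). In the average of both vectors IRX3 (-0.22) and MSX1, a homeobox factor of the roof plate and the midbrain floor plate (-0.21), were called lower, as were 6.22% of all tested genes. MSX1 passed with neither vector alone (adjusted p = 0.319 with miR-10a and 0.0544 with miR-10b). It is also on the list of midbrain floor plate markers used above, so that its fall cannot be read as that of a dorsal factor only. Between the uninduced vectors 2 of the 4 were called, both lower with miR-10b, against 6.72% of all tested genes. IRX3 was at 41.1 ± 3.3 CPM with miR-10b and 76.0 ± 2.5 CPM with miR-10a (SD, n = 3 each, log2 fold change -0.89, SE 0.06, adjusted p = 9.9e-14), and DBX1, of the intermediate neural tube, at 80.5 ± 0.38 and 99.7 ± 4.4 CPM (-0.31, SE 0.05, adjusted p = 2.9e-06).

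Transport in the primary cilium is needed for both activation and processing of the GLI proteins, and 19 of 28 symbols of this kind were tested. None passed with miR-10a, where 3 had an unadjusted p under 0.05, against 11.2% of all tested genes. With miR-10b, against 15.3% of all tested genes called in either direction, 3 rose (KIF3B, INPP5E and BBS1) and 3 fell (IFT52, IFT57 and TTC21B), with log2 fold changes from -0.16 to 0.19. INPP5E, a phosphatase of the ciliary membrane, and TTC21B, a part of the retrograde transport complex, lost their calls without replicate 2 of the induced group (adjusted p = 0.0603 and 0.0904). IFT57, a part of the anterograde complex, differed most between the uninduced vectors, at 230.8 ± 12.6 CPM with miR-10b and 177.1 ± 3.6 CPM with miR-10a (SD, n = 3 each, log2 fold change 0.38, SE 0.04, adjusted p = 9.7e-10). No gene of the further pathway, ventral, dorsal and cilium lists passed the test of the difference between the effects of the vectors in edgeR, where 3, 2, 0 and 2 of them had an unadjusted p under 0.05, against 13.2% of all tested genes.

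**Figure D5:**
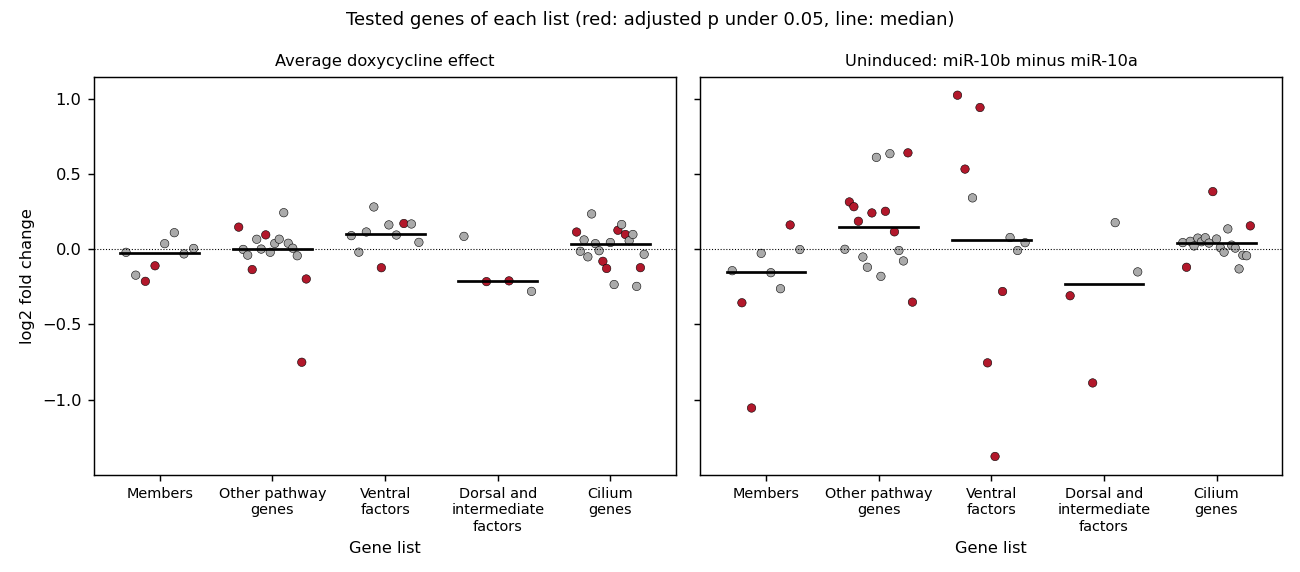
Fitted log2 fold change (vertical axis) of each tested gene of 5 lists, in the average of the doxycycline effects and between the uninduced vectors. Each point is a gene, red marks an adjusted p under 0.05 and lines are medians. The called genes reach from -1.38 (NKX2-8) to 1.02 (FERD3L) between the vectors, with GLI2 at -1.05, and from -0.75 (ZIC1) to 0.17 (NKX6-2) in the average effect.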

How the data were processed

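The authors mapped single-end reads to hg19 and deposited raw counts per RefSeq transcript with the transcript length, 1 file per sample. The submitters' processing notes name STAR, featureCounts and Subread, with no versions or settings, and the strand setting is not given in the sources used here. For extraction and libraries the labels name the miRNeasy kit and Illumina kits, the methods the RNeasy Mini and NuGEN Ovation kits. Each file held 51799 rows for 48101 transcripts, and 3698 repeated rows with the same counts were dropped. Genes with 1 transcript held 92.84% of the counts, so reads shared by transcripts appear not to be counted. The total count was the library size.

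Counts were fitted in edgeR 4.0.16 (R 4.3.3, glmQLFit and glmQLFTest) with 4 group means in one fit. The code was tested on simulated counts. GLI1, under the filter, was compared by exact permutation. The pathway genes and gene lists were chosen with earlier results of these data known. Named list genes are those past the threshold in any comparison, by size of change, at most 8 for further pathway genes and 3 for each other list, and other genes of these lists that are named belong to small counts and were picked after their values were seen. Alternatives were TMM factors, DESeq2 1.42.0, other filters, a replicate block, fits of the compared samples alone, counts summed over transcripts and leaving out each sample. Python 3.11.15, pandas 2.3.3 and scipy 1.17.1 served other steps. Intervals and the floor of 3 counts cover counting error or the spread between samples only. The seed matches of HHIP and the hindbrain markers are not reported here.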

Additional observations from a re-analysis of the deposited data

How the results depend on the processing

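The number of genes called with miR-10a was 139, and 272 in a fit of the compared samples alone, and that of the difference between vectors was 224, and 343 without a filter on counts. Pathway genes called with miR-10b were 2, and 1 in a fit of the compared samples alone. Further pathway genes called with miR-10b were 6, and 3 with DESeq2. Those of the difference were 0, and 1 with the replicate block. Replicate numbers did not pair the samples (mean r of deviations from group means -0.0093 for the same and 0.0047 for different numbers), and the block moved no other of these counts by over 1.5 times. The sign of 3 values near 0 turned with the scaling: BOC with miR-10b was -0.0161 with TMM factors and -0.0204 with DESeq2, SMO in the average -0.007 and -0.0104, and SMO between uninduced vectors 0.0048 and 0.0039. The cause of these changes was not tested. Under the alternatives other than leaving out a sample, 76 counts stayed within 1.5 times and 246 log2 fold changes of pathway genes kept their direction and their side of the threshold.

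Leaving out 1 sample at a time, the genes called numbered 75 to 268 with miR-10a, 1215 to 1792 with miR-10b, 1202 to 1718 in the average, 140 to 339 for the difference and 1231 to 1990 between uninduced vectors. Pathway genes called numbered 0 to 3 with miR-10b and 1 to 2 in the average, with none (0 to 0) for miR-10a and the difference, and 2 to 4 between uninduced vectors. Log2 fold changes that crossed 0 were those of SMO (-0.0017 to 0.0388), HHIP (-0.2155 to 0.0337) and BOC (-0.0751 to 0.0007) with miR-10a, SMO (-0.0251 to 0.0189) and BOC (-0.0119 to 0.0121) with miR-10b, and SMO (-0.0052 to 0.0174), HHIP (-0.0403 to 0.1353) and BOC (-0.0373 to 0.0005) in the average. For the difference they were SMO (-0.0428 to 0.0042), GAS1 (-0.141 to 0.0672) and BOC (-0.0003 to 0.0755), and between uninduced vectors SMO (-0.0174 to 0.0143) and GLI3 (-0.049 to 0.0173). None of these values passed the threshold in the full fit. Fits that left out a sample outside a comparison kept all of its compared samples and changed mainly the shared estimate of the spread. BOC between uninduced vectors passed with the block (adjusted p = 0.0444) and in the compared samples alone (0.0328). Low counts limit HHIP, GAS1 and GLI1 most, and for GLI1 reads shared by transcripts appear to be missing as well.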
